A study of Mus musculus with 60 samples.

Results

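Fkbp5 and Zbtb16 were followed in mammary glands of ovariectomized mice given estrogen, progesterone or both. They are represented by 4 of the 36899 probe sets on the 3 Affymetrix mouse array types used (types A, B and C), namely every probe set annotated with exactly 1 symbol among the 2 genes. Fkbp5 has 1 probe set (94297_at, type A), and Zbtb16 has 3 (92202_g_at and 92201_at on type A, 136068_at on type C). The genes were chosen by their measured signals in these arrays, because the single hormones went with higher levels than both hormones together, so the levels in the vehicle, estrogen, progesterone and combined groups are given as a description and were not tested. In GRCm38.p6 the RefSeq gene Fkbp5 lies on chromosome 17 from 28398753 to 28486149, and Zbtb16 lies on chromosome 9 from 48651797 to 48836225.

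FKBP51, the product of Fkbp5, is a cochaperone that binds Hsp90 in the complexes that hold steroid receptors, and it lowers the affinity of the glucocorticoid receptor for its hormone. Its gene is a well-known target of the glucocorticoid and progesterone receptors, whose binding sites at this gene lie largely in introns, so that the protein is part of a feedback loop on steroid signalling. Zbtb16 encodes PLZF, a zinc finger transcription factor with a BTB domain that mostly represses transcription. It is induced by glucocorticoids and progestins in several cell types, among them the stroma of the endometrium, and is also needed for innate-like T cells and spermatogonial stem cells.

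All 20 mice lacked ovaries, the main source of estrogen and progesterone, and received a daily intraperitoneal injection for 4 days. The vehicle group (V, 4 mice) received 100 µl of sesame oil, the estrogen group (E, 4 mice) 2 µg of 17-beta-estrogen, the progesterone group (P, 4 mice) 1 mg of progesterone, and the combined group (E+P, 5 mice) both at these doses. Fat pads free of epithelium from 3 mice given both hormones (E+P CFP) show the stroma without the gland's ducts. They were counted as mice apart from the E+P group, which the labels do not state. No fat pads from vehicle or single-hormone mice are among the samples, the sources used here do not give strain or age, and they mention removal of the ovaries but not of the adrenal glands, which make corticosterone. The titles repeat group and replicate number on each of the 3 array types, and arrays that shared them were taken as 1 mouse. The values are scaled signal intensities, in arbitrary units.

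Tissue make-up and RNA quality differed between some animals, and in whole tissue fewer cells of a type and less RNA per cell cannot be told apart. Scores are the mean log2 deviation of a marker list on type A. The score of B and plasma cell markers (7 probe sets) lay between -1.41 and 1.15 in V, where V 4 alone was above 0, and between 0.49 and 2.25 in E. It ran from -1.54 to 0.93 in P and from -1.41 to 0.83 in E+P. Its medians were -1.35 in V, 0.78 in E, -0.0062 in P, -1.10 in E+P and 0.49 in the fat pads. For T and innate-like T cell markers (8 probe sets) the medians were -1.34, 0.70, -0.028, -0.90 and 0.45. Skeletal muscle markers scored 2.05 in E 1 and 2.17 to 2.82 in the fat pads, against at most 0.72 elsewhere. For Gapdh, the log2 signal near the 3' end minus that near the 5' end, which grows as RNA degrades, was 0.305 to 0.778 in E and 0.98 to 1.88 in V. Brown adipocyte markers scored 0.40 to 0.68 in V, 0.031 to 0.102 in P, -0.99 to -0.56 in E and -0.31 to 0.84 in E+P. Luminal epithelium markers scored -0.14 to 0.32 in P, 0.36 to 0.60 in V, 0.15 to 0.96 in E and 0.68 to 1.24 in E+P. Endothelial markers scored 0.016 to 0.39 in V and -0.40 to -0.16 in E.

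The upstream sequence of Fkbp5 is shown because steroid receptors act through short DNA motifs. It is the 250 bases before the transcription start in RefSeq (GRCm38.p6, chr17:28486150-28486399, minus strand, 5′ to 3′), with GC boxes (GGGCGG) and CCAAT boxes on either strand in capitals:
Fkbp5: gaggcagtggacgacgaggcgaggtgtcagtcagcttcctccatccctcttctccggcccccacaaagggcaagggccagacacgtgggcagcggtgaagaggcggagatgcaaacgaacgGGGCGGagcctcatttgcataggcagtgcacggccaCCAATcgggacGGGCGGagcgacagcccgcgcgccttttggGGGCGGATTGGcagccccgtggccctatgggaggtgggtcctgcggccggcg
There were 3 GC boxes and 2 CCAAT boxes, motifs that 32.7% and 33.8% of 32851 upstream sequences of the same length hold. The last GC box and the last CCAAT box abut. The element bound by the glucocorticoid and progesterone receptors (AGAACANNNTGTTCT, both strands) had no match in these letters, and neither did its half-site TGTTCT, the estrogen response element GGTCANNNTGACC or TATAAA. Of all the sequences, 3 hold the full steroid element, 16.1% its half-site, 0.0639% the estrogen element and 12.4% TATAAA. Among 22 steroid-responsive genes with an upstream sequence, listed further on, Sgk1 was the gene that held the full element. A motif match is a description of the letters and shows no binding.

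Fkbp5 signal was high in the estrogen group and intermediate or low elsewhere. In V it was 159, 96.5, 112 and 192 in animals 1 to 4. In E it was 619, 812, 398 and 396. Every E animal stood above every V animal, by a geometric mean of 530.3 against 135. In P the signal was 164, 204, 439 and 222, and in E+P it was 169, 339, 154, 186 and 274.5. Both groups overlapped V, whose highest animal exceeded the lowest of each, while E and E+P did not overlap. The share of all probe sets with E apart from V and E+P was not counted. Fkbp5 in P 3 was above the lowest E animals, so E and P overlapped through that mouse.

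On the log2 scale Fkbp5 was 1.97 ± 0.31 (standard error) higher in E than in V, 0.83 ± 0.31 higher in P and 0.66 ± 0.29 higher in E+P. All 3 differences share the V animals. E+P minus E was -1.31 ± 0.29, and differed from P by -0.16 ± 0.29, a gap smaller than its error. Without P 3 that gap was 0.13, and P minus V was 0.53. For Fkbp5 the weaker response to both hormones than to 1 was therefore seen against estrogen. If the log2 effects of the single hormones added up, the gap would be 0, and it was -2.14 ± 0.42, a 4.39-fold shortfall. Over all tested probe sets limma called 0.0824% higher in E than in V and 0.0694% lower in E+P than in E, given as background only because the rule used these contrasts.

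Zbtb16 signal was high with either hormone alone and low with neither or both. With probe set 92202_g_at, V animals measured 195, 137, 156 and 81.0. In E the values were 570.3, 597, 412 and 719, and in P they were 283, 394, 909 and 596. The lowest single-hormone animal, P 1, was above the highest vehicle animal. In E+P the signal was 92.1, 217, 151, 210.4 and 179.8. All 5 E+P animals lay below all 8 single-hormone animals and overlapped the vehicle range.

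A second Zbtb16 probe set on other arrays, 136068_at, was likewise higher in E and P than in V and E+P, with smaller differences. V animals measured 158, 160.2, 159 and 132, and E animals 432, 360.5, 289.5 and 494. P animals measured 361.5, 521, 342 and 408, and E+P animals 157, 216, 198, 180.3 and 254.5. Again no E or P animal overlapped V or E+P. The third probe set, 92201_at, lay between 3.1 and 13.2 in all 20 animals, below the floor of 13.5 set for type A, so it gives no difference.

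**Figure D1:**
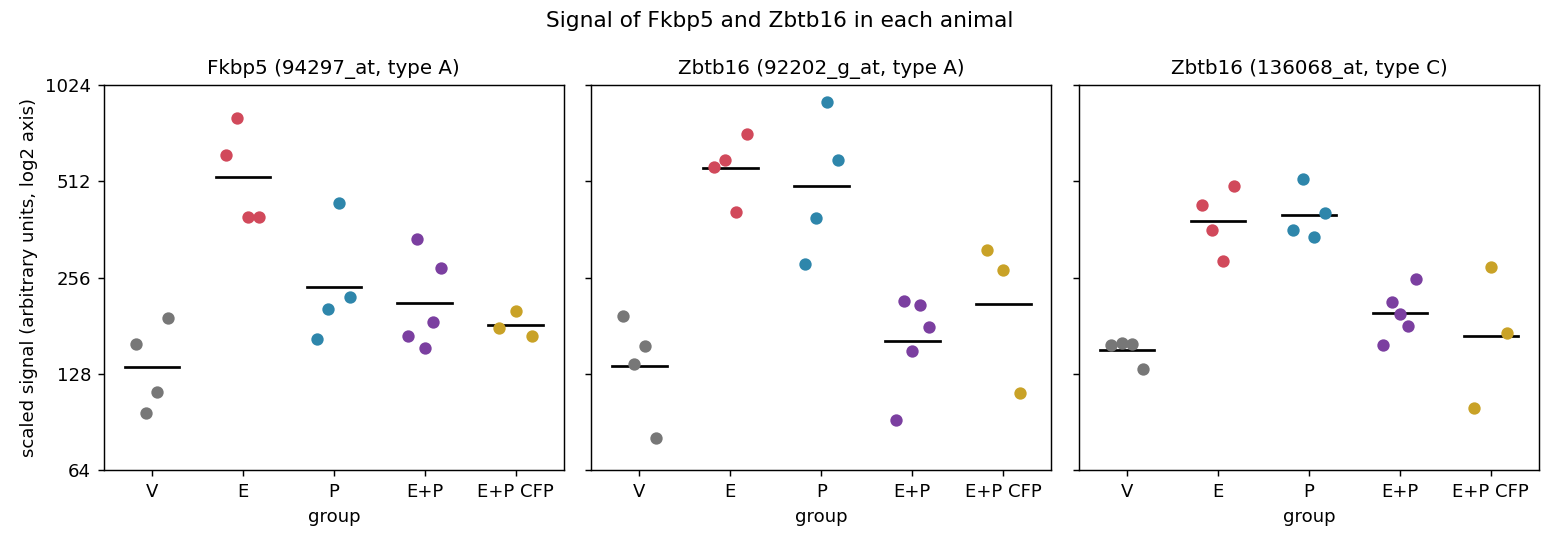
Scaled signal of Fkbp5 and of the 2 bright Zbtb16 probe sets in every animal, on a log2 axis, by group, with black bars at the geometric means. E is highest for Fkbp5, while for Zbtb16 the E and P animals lie above all V and E+P animals in both panels.

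With 92202_g_at, Zbtb16 was 2.06 ± 0.37 higher on the log2 scale in E than in V, 1.87 ± 0.37 higher in P and 0.26 ± 0.35 higher in E+P. With 136068_at the same differences were 1.35 ± 0.27, 1.41 ± 0.27 and 0.39 ± 0.26. The difference of E+P from V was thus about the size of its error or little more with either probe set. E+P minus E was -1.79 ± 0.35 and E+P minus P was -1.61 ± 0.35 with 92202_g_at, against -0.96 ± 0.26 and -1.02 ± 0.26 with 136068_at. The term for E+P against the sum of the single effects was -3.66 ± 0.50 with 92202_g_at, a 12.7-fold shortfall, and -2.37 ± 0.37 with 136068_at, a 5.16-fold shortfall. Among 23055 probe sets bright enough to be tested, these values ranked 8 and 104 from the most negative, and that of Fkbp5 ranked 152. Over all tested probe sets limma called 0.0737% for this non-additive term, 0.039% as negative, and 0.0824% lower in E+P than in P. Nothing is read from these shares, because the rule used the contrasts.

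**Figure D2:**
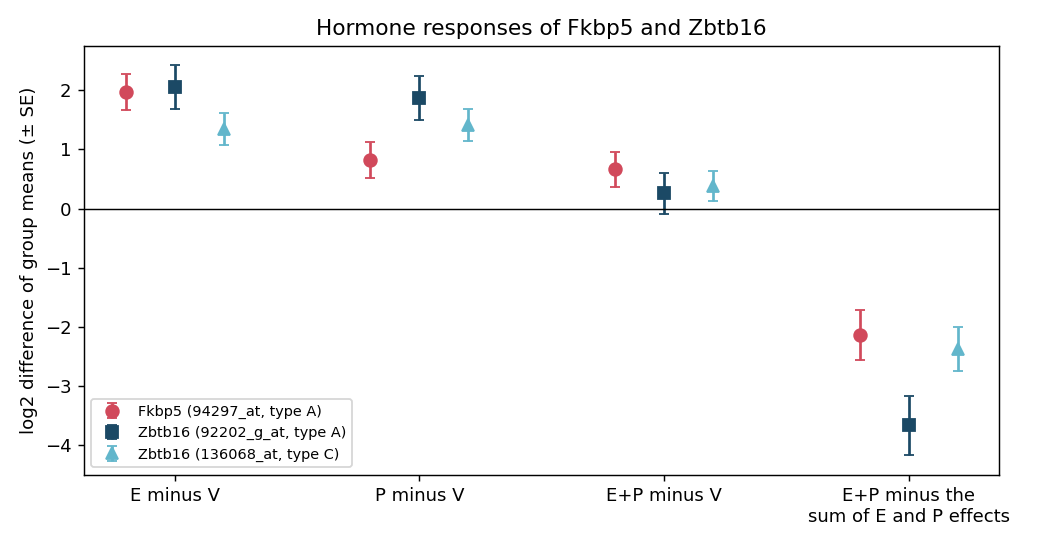
Log2 differences of group means, with standard errors, for Fkbp5 and both bright Zbtb16 probe sets. Fkbp5 differs more for E (1.97) than for P (0.83), Zbtb16 differs about as much for each, E+P minus V is 0.66 for Fkbp5 and 0.26 and 0.39 for Zbtb16, and the term for E+P minus the sum of the single effects is negative throughout.

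Marker scores and RNA quality moved with some of these groups. Without V 4, the vehicle animal with high lymphocyte markers, Fkbp5 was 2.14 higher in E than in V, 1.0 higher in P and 0.83 higher in E+P. Zbtb16 (92202_g_at) was then 1.81, 1.62 and 0.015 higher. Without E 1, the animal with high muscle markers, the E minus V difference was 1.90 for Fkbp5 and 2.05 for Zbtb16. The Gapdh ratio, brown fat score and endothelial score of the E animals lay below those of V without overlap, as did the brown fat and luminal scores of the P animals. The luminal scores of E+P lay above those of V and P. Medians of both lymphocyte scores were higher in E and P than in V and E+P, the order seen for Zbtb16, with overlapping ranges. The median non-additive term was -2.19 over 9 B and plasma cell genes and -1.67 over 9 T cell genes, beside 0.011 over all probe sets. Of these genes 0 were called by limma, and 7 and 4 had an unadjusted p below 0.05, beside 11.7% of all probe sets. The part of these markers and of RNA quality in the Fkbp5 and Zbtb16 values was not tested.

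Both bright Zbtb16 probe sets placed E and P above V, E+P and the fat pads on average, and differed in the order within those sets. The E mean was above P and the fat pad mean above E+P with 92202_g_at, and both were the other way round with 136068_at. Over the 20 animals their log2 signals correlated at r = 0.764 (Spearman 0.758). After removal of the group means the correlation was 0.135 (Spearman 0.116). P 3 was the highest P animal with 92202_g_at and the lowest with 136068_at, and among the fat pads number 1 was highest with the first and lowest with the second. The points share animals but come from separate hybridisations, joined by the replicate number in the labels.

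**Figure D3:**
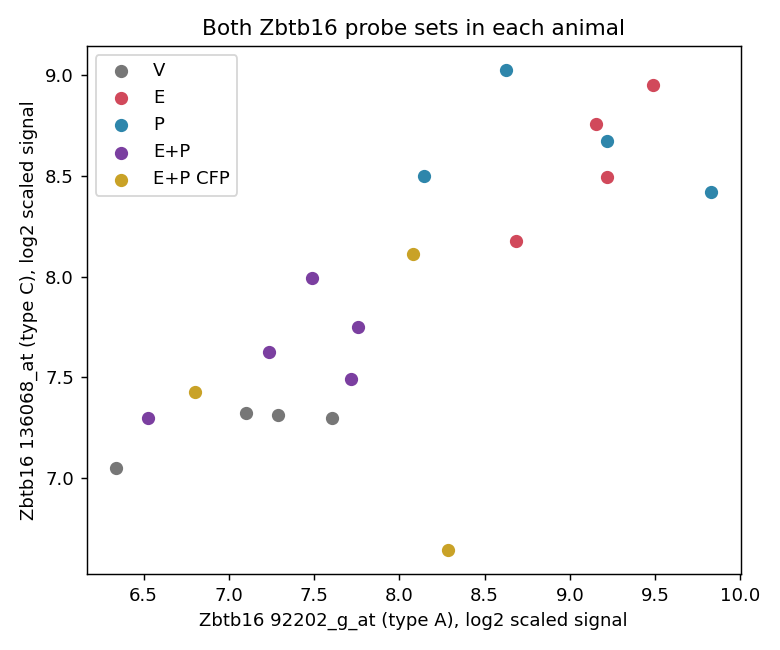
Log2 scaled signal of Zbtb16 by probe set 136068_at against 92202_g_at, 1 point per animal, coloured by group. The E and P animals sit in the upper right with both probe sets, while within a group the order differs between them (r = 0.135 after removal of group means).

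Spread between animals within a group was not part of the choice of genes and was tested over 20 animals. Deviations from the group means of Fkbp5 and Zbtb16 (92202_g_at) correlated at r = 0.416 (two-sided permutation p = 0.0968, adjusted p = 0.484) and Spearman's rho = 0.486 (permutation p = 0.0384, adjusted p = 0.266). Without P 3 and E+P 2, the 2 animals farthest out, r was 0.205. Deviations were also set against the Gapdh ratio and 6 marker scores, which made 15 relations adjusted together. None passed by permutation. Zbtb16 was read by 92202_g_at in all of these relations. The deviations of this probe set correlated at r = 0.135 (Spearman's rho = 0.116) with those of the other bright Zbtb16 probe set, whose relations were not tested. The Zbtb16 relations therefore hold for 92202_g_at alone, and a weak relation does not show that Zbtb16 is unrelated to a score. The strongest for Fkbp5 were adipocyte markers at r = -0.573 (permutation p = 0.0249, adjusted p = 0.299, r = -0.488 without V 4 and E+P 5, rho = -0.460, permutation p = 0.0820, adjusted p = 0.266) and B and plasma cell markers at r = 0.549 (permutation p = 0.0398, adjusted p = 0.299, r = 0.391 without V 4 and E+P 2, rho = 0.435, permutation p = 0.105, adjusted p = 0.266). The strongest for Zbtb16 was with brown adipocyte markers, at rho = -0.532 (permutation p = 0.0217, adjusted p = 0.266) and r = -0.248 (permutation p = 0.294, adjusted p = 0.630, r = -0.577 without E+P 4 and E+P 5). With B and plasma cell markers it was r = 0.0021 (permutation p = 0.994, adjusted p = 0.994, rho = 0.0977, permutation p = 0.703, adjusted p = 0.947, r = 0.152 without V 4 and E+P 2).

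Both genes were measured in fat pads without epithelium at levels within or close to those of the E+P glands. Epithelial RNA was low in the fat pads: the keratin gene Krt8 measured 945 to 1643 in the E+P glands and 6.9 to 9.3 in the fat pads, the keratin gene Krt19 966 to 1855 and 1.9 to 3.7, and the adhesion gene Epcam 184.5 to 308.5 and 3.1 to 6.5. In all, 4 of 12 luminal markers were at the floor in every fat pad. Fkbp5 measured 178, 201 and 168 in the fat pads, inside the range of the 5 glands. Zbtb16 measured 312, 271 and 111 with 92202_g_at, and 100.0, 276 and 172 with 136068_at. Fat pads 1 and 2 exceeded every gland with the first probe set. With the second, fat pad 2 exceeded every gland and fat pad 1 lay below every gland, the lowest of which measured 157.

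The fat pads were not used to choose the genes, but the E+P glands were, and low gland values favoured the choice, so the p-values that follow are not independent of it and support nothing about the 2 genes. Fkbp5 was 0.23 ± 0.32 higher in glands (95% interval -0.43 to 0.89, limma adjusted p = 0.757, with groups that overlap). Zbtb16 was 0.38 ± 0.38 lower with 92202_g_at (-1.16 to 0.41, limma adjusted p = 0.648) and 0.24 ± 0.28 higher with 136068_at (-0.34 to 0.81, limma adjusted p = 0.705). Exact permutation tests on 5 glands against 3 fat pads gave two-sided p-values of 0.571, 0.464 and 0.536, where 0.0179 is the smallest possible. The intervals, open to the same choice, run over glands at 0.744 to 1.86 times the fat pad level for Fkbp5 and 0.446 to 1.33 times for Zbtb16 (92202_g_at). Over all probe sets, 7.9% were called, 1208 higher and 613 lower in glands, a split that median scaling of the arrays turned to 830 and 1211. The fat pads also held muscle RNA: the actin gene Acta1 measured 1841 to 2453 there and 58.2 to 269 in the glands, and the part of muscle in the fat pad levels of Fkbp5 and Zbtb16 was not tested.

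**Figure D4:**
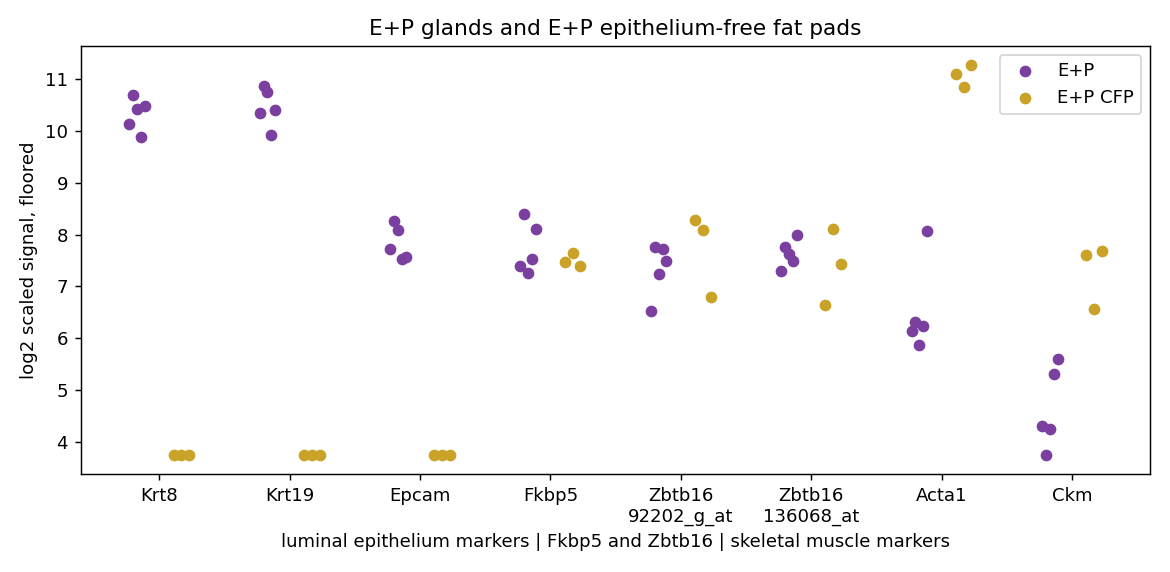
Log2 scaled signal, floored at 3.75 for type A, of luminal epithelium markers, Fkbp5, Zbtb16 and skeletal muscle markers in the 5 E+P glands and 3 E+P fat pads. Krt8, Krt19 and Epcam are at the floor in the 3 fat pads and Acta1 and Ckm stand higher there, while Fkbp5 and Zbtb16 overlap between the groups.

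No gene on a list of those that respond to glucocorticoids or progestins was called in the hormone comparisons of intact glands. Of 25 listed genes, 24 were tested, and by limma 0 were called in E against V (5 at an unadjusted p below 0.05; 0.182% of all probe sets were called) and 0 in P against V (5 unadjusted; 0% called). Over all probe sets 12.1% and 8.07% had an unadjusted p below 0.05 in these comparisons, 10.7% in E+P against V and 11.7% for the non-additive term, shares that also stand behind the unadjusted counts of the lists that follow. In E+P against V 0 were called (1 unadjusted; 0.464% called), and for the non-additive term 0 (4 unadjusted; 0.0737% called). Their median log2 differences were 0.19 for E, 0.048 for P and 0.23 for E+P against V, beside 0.0011, 0.0090 and 0.014 over all probe sets. In E+P glands against fat pads 3 were called higher and 0 lower (9 unadjusted), beside 5.24% and 2.66% of all probe sets, and 20.1% unadjusted. They were Lcn2, given further on, Errfi1 (limma adjusted p = 0.00537) and Mt2 (limma adjusted p = 0.0228). Median scaling ended the Errfi1 and Mt2 calls, and leaving out any of 3 animals ended that of Mt2 (adjusted p from 0.0533 to 0.105). Sgk1, a kinase that regulates sodium transport, stood at 0.25 and 0.10 in E and P against V, and the phosphatase gene Dusp1 at -0.30 and 0.06. Klf9, a zinc finger factor, stood at 0.13 and -0.24, and the clock gene Per1 at -0.09 and -0.87, with limma adjusted p-values of at least 0.714 for these 4 genes in both comparisons.

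Some members of that list came nearer to Fkbp5 and Zbtb16 than others. The highest E minus V difference on the list was 1.20, in a gene other than those named in this paragraph. Mertk, a receptor that lets macrophages engulf dying cells, measured 34.6 to 55.9 in V, 79.1 to 99.9 in E, 53.5 to 86.1 in P and 52.9 to 73.6 in E+P. Every E animal was above every V and E+P animal, and the share of all probe sets with that separation was not counted. It stood at 0.96 ± 0.23 in E and 0.63 ± 0.23 in P against V (limma adjusted p = 0.0979 and 0.489). Bcl6, a BTB zinc finger repressor related to PLZF, stood at 0.52 and 0.72 (limma adjusted p = 0.451 and 0.489). Arrdc2, an arrestin-domain gene, stood at -0.67 in E, -1.39 in P and 0.15 in E+P against V, lowest with the single hormones. Its non-additive term was 2.21 (limma adjusted p = 0.187), and it was 2.77 (adjusted p = 0.0347) without P 4. Bcl6 and Arrdc2 are named after their values were seen.

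**Figure D5:**
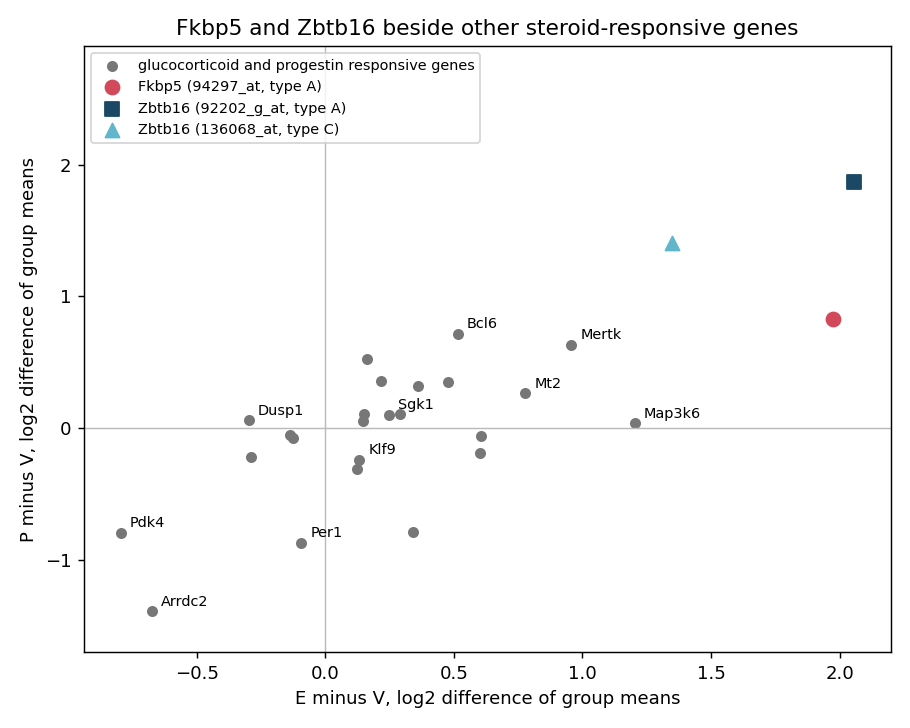
Log2 difference from vehicle with progesterone (y axis) against estrogen (x axis) for 24 glucocorticoid and progestin responsive genes, Fkbp5 and the 2 bright Zbtb16 probe sets. The listed genes lie between -0.80 and 1.20 for E and between -1.39 and 0.72 for P. Fkbp5 and both Zbtb16 probe sets lie above these ranges on both axes.

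The partners through which FKBP51 acts gave few calls. Of 6 tested genes among steroid receptors, coregulators and corticosterone enzymes, 0 were called by limma in E, P or E+P against V (1, 0 and 1 unadjusted). The glucocorticoid receptor gene Nr3c1 stood at -0.17 in E and 0.29 in P, and the estrogen receptor gene Esr1 at -0.52 and -0.13. Hsd11b1, whose enzyme regenerates active glucocorticoid, was lower in E+P glands than in fat pads by 1.17 ± 0.36 (limma adjusted p = 0.0467), a call that ended on leaving out any of 14 animals (adjusted p from 0.0501 to 0.164). Of 12 tested Hsp90 and cochaperone genes, 0 were called in these 3 comparisons (4, 3 and 1 unadjusted). The chaperone gene Hsp90aa1 stood at 0.55, 0.37 and 0.46. Fkbp4, the paralog that promotes receptor transport, stood at -0.06, -0.10 and 0.03, read by a probe set that may bind related genes. Of 11 other FK506-binding proteins 0 were called (1, 0 and 1 unadjusted), and Fkbp11, a secretory pathway member, was 2.03 ± 0.48 higher in glands than in fat pads, of which 1 of 3 was at the floor (limma adjusted p = 0.0095). The difference was 1.64 without fat pad 1 (adjusted p = 0.0886) and 1.66 without fat pad 2 (adjusted p = 0.0723).

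Among 27 other BTB zinc finger factors, Bcl6b, an endothelial repressor, fell by 1.21 ± 0.21 in E+P against V (limma adjusted p = 0.0107). Of 8 endothelial markers, 2 were called lower there (4 unadjusted, median log2 difference -0.41), beside 0.213% of all probe sets. In glands against fat pads 1 was called lower (4 unadjusted, median -0.40), beside 2.66% of all probe sets. The part of these markers in the Bcl6b values was not tested. Of the BTB factors, 0 were called in E or P against V (3 and 2 unadjusted). In glands against fat pads, 5.24% of all probe sets were called higher and 2.66% lower. Of the BTB factors 3 rose there, Patz1 by 1.09, Zbtb8a by 1.14 and Zbtb38 by 0.64, and Bcl6b fell by 0.99 (limma adjusted p = 0.00103, 0.00508, 0.0453 and 0.00892). Without fat pad 1 the last 3 lost their calls, at adjusted p-values of 0.0726, 0.315 and 0.0689, and Zbtb38 lost its call without any of 13 animals.

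Targets of the progesterone and estrogen receptors were set beside the 2 genes. Of 6 progesterone receptor targets tested, 0 were called in E, P or E+P against V (1, 0 and 3 unadjusted), and Wnt4, a paracrine ligand of the duct, stood at 0.59, 0.18 and 0.22. Of 8 estrogen receptor targets, Ltf, the lactoferrin gene, fell by 1.58 ± 0.24 in E+P against V (limma adjusted p = 0.00429). Stc2, a secreted glycoprotein, measured 520.0 to 1012 in E, 224 to 486 in V, 179.9 to 482 in P and 167 to 428 in E+P. E animals did not overlap V or E+P, a separation whose share over all probe sets was not counted. It fell by 1.53 ± 0.30 in E+P against E (limma adjusted p = 0.0392, 0.143% of all probe sets called), and stood at 1.28 ± 0.31 in E against V (limma adjusted p = 0.0979). Leaving out V 4 gave 1.49 and an adjusted p of 0.0395. The fall lost its call without any of 12 animals (adjusted p from 0.0519 to 0.128). Ltf also fell by 1.46 ± 0.24 in E+P against E (limma adjusted p = 0.0170), with the call lost without E 2 (adjusted p = 0.0755), E 3 (0.0656) or E+P 2 (0.0571). Of the other genes fixed to be named, Tsc22d3, Pgr, Tnfsf11 and Greb1 were too dim to be tested, and Areg was not found in the annotation used.

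The largest differences of the listed genes between glands and fat pads were in Lcn2, Ltf and Elf5. Elf5, a luminal transcription factor, was at the floor in all 3 fat pads and at least 3.83 higher in glands (limma adjusted p = 9.89e-11), while 1 of 3 fat pads was at the floor for the lipocalin gene Lcn2, 5.04 higher in glands (limma adjusted p = 1.21e-09), and for Ltf, 3.90 higher (limma adjusted p = 1.68e-09). Of 91 genes in the 7 lists 14 rose and 2 fell, beside 5.24% and 2.66% of all probe sets. Leaving out fat pad 1 brought the 16 to 10.

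The pattern of Zbtb16, with all 8 single-hormone animals above all 9 vehicle and E+P animals, was shared by few probe sets. It held for 8 of 23055 (0.0347%), and as many showed the reverse. This criterion was set after the values were seen. Of the 8, 6 carried 1 symbol and stood for 5 genes, Zbtb16 (2 probe sets), 6430571L13Rik, Fam13a, Ccnd2 and BC049762. Fam13a averaged 8.03 log2 units in V, 9.29 in E, 9.05 in P and 7.95 in E+P with 139041_at. Its brighter probe set 112429_at gave 10.90, 11.23, 11.09 and 10.35, without the separation. The cyclin gene Ccnd2 averaged 4.32, 5.79, 5.86 and 4.77, close to the floor. The other probe sets of 6430571L13Rik did not show the pattern.

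Over the 20 animals, the gene on type A most like Fkbp5 was Rbbp7, a histone-binding protein (Pearson r = 0.809 of log2 signal), followed by Plcg2, a phospholipase of immune cells (0.783), Tph1, an enzyme of serotonin synthesis (0.756), Gtpbp4 (0.745) and Dhx9, an RNA helicase (0.722). Tph1 stood at the floor in every V and fat pad animal and averaged 6.88 log2 units in E. Most like Zbtb16 were Gatad2a, a chromatin repressor subunit (0.840), Herpud1, a gene of endoplasmic reticulum stress (0.777), Fkbp5 itself (0.707), Mertk (0.705) and Dtd2 (0.696). Among 7224 probe sets Fkbp5 took place 3 for Zbtb16 and Zbtb16 place 15 for Fkbp5. Gatad2a averaged 4.45 log2 units in V, 5.87 in E, 5.84 in P and 4.82 in E+P, close to the floor in V and E+P. These likenesses include the group differences that chose the genes and are given without a test.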

How the data were processed

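Mammary RNA (2 µg per array, per the labels' protocols) was read on 3 array types. The authors deposited linear signal intensities from MAS5, as the submitters' processing notes name it, with no version or settings in those notes. From the values, the 2% trimmed mean of each array was 150.03 to 150.1. Groups follow the titles, since the description field of vehicle and E+P samples names progesterone only. Within a type, arrays were scaled to 1 trimmed mean, and signals below the 25th percentile (13.5, 28.5 and 19.8 on A, B and C) were set to it before taking log2. Probe sets above the 50th percentile in at least 3 animals were tested (7224, 7719 and 8112). Arrays of a group with 1 replicate number were taken as 1 animal. The number of arrays limits the precision, and the labels do not say from how many cohorts the animals came.

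Of all probe sets 29197 had 1 symbol in the platform annotation, 724 several and 6978 none, and 29110 matched RefSeq GRCm38.p6 by gene number. limma 3.58.1 (R 4.3.3) fitted 5 group means per array type with a trended empirical Bayes step, and Benjamini-Hochberg adjustment ran over all types (threshold 0.05). It was tested on simulated data. Each gene was read by its tested probe set of lowest array letter, then plainest suffix, then highest mean; 92201_at was too dim, so 92202_g_at stands for Zbtb16. Named genes were both members, up to 4 called genes per list and comparison, 16 fixed genes (1 is not reported here) and the 5 most alike on type A. Permutations within groups numbered 100000 (scipy 1.17.1). Members, lists and tests were chosen with earlier results of these data known. Alternatives were unscaled values, quantile and median scaling, other floors, an offset of 16, no filter, no trend, a fit of 2 groups, a replicate block, another probe set and each animal left out.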

Additional observations from a re-analysis of the deposited data

Results flagged for a closer look

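Zbtb16 in V 4 with probe set 136068_at measured 132.4, apart from the other vehicle animals at 158 to 160.2. On the log2 scale its gap was 0.914 of the group's range, above Dixon's critical value of 0.829 for 4 samples. Of 12 groups examined this way for Fkbp5 and Zbtb16, it was the 1 that stood out. Chance flags about 1 in 20 of the groups examined, so nothing is read from 1 flag among 12. The same animal also had the lowest Zbtb16 signal of the vehicle group with 92202_g_at (81.0), the highest Fkbp5 (192) and the highest lymphocyte score of its group (1.15). No cause was tested.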

How the results depend on the processing

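Of 247 values of the Fkbp5 and Zbtb16 differences under alternatives, 4 moved by more than the spread between animals, all with the other Zbtb16 probe set (136068_at): 1.35 for E against V, -0.96 for E+P against E, -1.02 for E+P against P and -2.37 for the non-additive term. Leaving out 1 animal moved E against V to between 1.77 and 2.14 for Fkbp5 and between 1.81 and 2.23 for Zbtb16, and the non-additive term to between -2.32 and -1.84 and between -3.93 and -3.37. For Fkbp5, P against V ranged from 0.53 to 1.01 and E+P against P from -0.34 to 0.13, with the sign turned without P 3. Gland against fat pad stayed uncalled for both genes, at limma adjusted p-values from 0.239 to 0.994. The E+P glands entered the choice of the genes, so these p-values support nothing about them. Median scaling moved the median of all probe sets in that comparison from 0.016 to -0.115, and Fkbp5 to 0.0060 and Zbtb16 to -0.60. The 60 relations between deviations recomputed under other scalings or the offset stayed uncalled.

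Same-numbered animals of different groups were treated as different mice. After removal of group means, 36 such pairs correlated at -0.102 to 0.0983, and 5 of 20 animals correlated best with their own number. These correlations cannot show whether a gland and a fat pad came from 1 mouse. With the replicate block, E against V was 1.97 for Fkbp5 and 2.06 for Zbtb16, and list genes called were 1 (Stc2) for E against V and 0 for E+P against E. Without a filter, or with a floor at the 10th percentile, 0 list genes were called for E+P against E, and no trend gave 1, against 2. Leaving out 1 animal gave 0 to 1 list genes for E against V, 0 to 2 for E+P against E, 0 to 1 for E+P against P, 0 to 1 for the non-additive term and 10 to 17 for gland against fat pad. Over all probe sets, median scaling called 64 against 42 for E against V, 55 against 83 for E+P against P and 28 against 17 for the non-additive term. The causes were not tested. Probe set 92201_at gave no value.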
